A study of Mus musculus with 12 samples.

Results

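The Slc25 genes encode the mitochondrial carrier family, and H3K27ac was examined at 35 of them in the 4T1 line of mouse mammary carcinoma cells, labelled as wild type. H3K27ac, the acetylated form of histone H3 at active promoters and enhancers, was read by ChIP-seq with human chromatin added as a spike-in. The genes were every symbol made of Slc25a and digits to which an interval of the table was assigned, without Slc25a1 and Slc25a20 and without pseudogenes. They were 35 of 22264 symbols and held 221 of 126464 intervals. Cells were kept for 48 h in the same medium with vehicle, with etomoxir, or with etomoxir + SB204990, and each of these with or without acetate, which makes 6 groups. The inhibitors were used at 50 µM each and acetate at 5 mM. Each group had 2 libraries, which are called set 1 and set 2 after the suffix in their names. The meaning of the suffix is not stated, nor is it stated whether the 2 libraries came from separate cultures, so the p-values measure the spread between these libraries, which may be technical.

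Carriers of this family sit in the mitochondrial inner membrane and exchange nucleotides, phosphate, carboxylates, amino acids and cofactors between matrix and cytosol. The excluded Slc25a1 and Slc25a20 export citrate and import acylcarnitines, the routes on which the inhibitors bear most directly. Etomoxir blocks carnitine palmitoyltransferase, which commits long-chain fatty acids to that import, and SB204990 blocks ATP citrate lyase, which makes cytosolic acetyl-CoA from citrate. Acetate can be activated to acetyl-CoA, the donor for histone acetylation, without either step. The comparisons ask how the acetylation of chromatin at the carrier genes followed these treatments.

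The value of a gene in a library is the sum of its scaled reads, which are the reads in its intervals multiplied by the spike-in factor of the library. The libraries held 7179165 to 16676442 reads in intervals. Between 0.210% (95% Wilson interval 0.208 to 0.212%, counting error only) and 0.223% (0.221 to 0.226%) of these reads lay in Slc25 intervals. The highest factor, 1, occurred once in each set, and whether the factors of the sets share a scale is not stated. Within-set medians of all tested Slc25 genes therefore accompany their pooled median in each comparison. One library, etomoxir + SB204990 of set 2, was unlike the others. The lowest quartile of intervals by signal took 2.77% of its reads and 0.990% to 1.41% of those of the other 11. Of 7 epithelial markers, 6 had signal in every library, from Krt19 (453 to 1252) to Krt8 (2641 to 5744), and Krt18 had no interval under its symbol. The leukocyte gene Ptprc had 32.3 to 81.6. Csf1r (272 to 809) and Pecam1 (382 to 1081), which mark macrophages and endothelium, overlapped the range of Krt19, whereas the endothelial gene Cdh5 had 70.5 to 178 and the macrophage gene Adgre1 no interval. Their part in the results was not tested. Of all 14 markers of other cell types, 5 had no interval under their symbols, and the other 9 ranged from Cd3e (2.79 to 32) to Pecam1. In a population of cells, a change in every cell and a change in the share of cells carrying the mark cannot be told apart.

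Of the 221 Slc25 intervals, the authors' annotation put 111 in introns, 65 between genes, 10 in exons, 19 at promoters and 16 at the ends of transcripts. A gene had 1 to 44 intervals (median 3), and 7 genes had 1. The nearest symbol is not always the gene that the interval belongs to. In the GENCODE annotation of the same build, 26 of the 35 genes had a coding transcript start under an interval of their own symbol, 5 only under an interval assigned to another symbol and 4 under none. The starts of Slc25a10, Slc25a13, Slc25a28, Slc25a33 and Slc25a40 lay in intervals assigned to Mrpl12, Gm20619, BC037704, Gm16188 and Dbf4, so their sums lack the promoter. Another 10 coding genes of the family had no interval under their own symbol, and 7 of these starts lay under an interval of another symbol. Among the latter were Slc25a11, the oxoglutarate carrier, under an Eno3 interval and Slc25a22, a glutamate carrier, under a Cracr2b interval. Slc25a31, the testis form of the ADP/ATP carrier, was not under any interval. Conversely, 8 of the 221 intervals held the start of another coding gene, taken as its gene start and not that of a coding transcript. Besides those of Slc25a24 and Slc25a26 described below, they held the starts of Hat1 (45.7% of the Slc25a12 signal), Dna2 (41.4% of Slc25a16), Cyp39a1 (60.7% of Slc25a27), Dcaf13 (87.0% of Slc25a32), Pmf1 (all of Slc25a44) and Slc25a47 (97.7% of Slc25a29). No coding transcript of Slc25a47 started in the Slc25a29 interval. In such intervals the signal of the pair cannot be told apart.

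The promoters of 5 genes are shown, chosen by their values in these data or as a named pair. Slc25a42 had the highest change with etomoxir among genes with a mean of at least 50, Slc25a30 and Slc25a43 lay at the upper and lower end of the acetate response among well-covered genes, and Slc25a4 and Slc25a5 are the paired ADP/ATP carriers. Each window is the RefSeq sequence around the start, with the last 50 bases downstream of it (GRCm38.p6), written 5′ to 3′ on the strand of the gene, and each lay inside an interval of its own symbol. The windows are chr8:70212232-70212531 (minus strand) for Slc25a42, chr14:75786988-75787287 (minus) for Slc25a30, chrX:36743382-36743681 (plus) for Slc25a43, chr8:46211013-46211312 (minus) for Slc25a4 and chrX:36795347-36795646 (plus) for Slc25a5. Capitals mark matches on either strand to the CCAAT box (CCAAT), the Sp1 GC box (GGGCGG), the E-box (CACGTG), the cAMP response element (TGACGTCA), the nuclear receptor half-site (AGGTCA), the estrogen-related receptor element (TCAAGGTCA, which holds the half-site) and the NRF1 core (GCATGCGC).
Slc25a42: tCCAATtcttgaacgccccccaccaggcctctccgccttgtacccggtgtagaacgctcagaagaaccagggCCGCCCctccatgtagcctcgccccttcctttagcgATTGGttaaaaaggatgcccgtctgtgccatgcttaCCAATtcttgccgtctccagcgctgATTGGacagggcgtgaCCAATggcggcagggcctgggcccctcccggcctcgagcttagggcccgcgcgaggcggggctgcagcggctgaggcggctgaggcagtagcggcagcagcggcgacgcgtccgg
Slc25a30: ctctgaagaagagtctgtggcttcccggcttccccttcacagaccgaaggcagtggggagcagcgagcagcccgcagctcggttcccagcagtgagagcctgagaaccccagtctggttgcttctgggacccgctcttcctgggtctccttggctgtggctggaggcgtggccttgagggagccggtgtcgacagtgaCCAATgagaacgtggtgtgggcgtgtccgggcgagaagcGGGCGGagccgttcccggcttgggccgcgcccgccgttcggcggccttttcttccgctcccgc
Slc25a43: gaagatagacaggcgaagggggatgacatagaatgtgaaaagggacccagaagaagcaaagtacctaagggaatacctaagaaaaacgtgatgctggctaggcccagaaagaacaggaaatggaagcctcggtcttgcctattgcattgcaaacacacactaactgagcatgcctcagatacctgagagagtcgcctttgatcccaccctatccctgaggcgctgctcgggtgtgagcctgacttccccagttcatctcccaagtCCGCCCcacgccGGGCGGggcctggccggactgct
Slc25a4: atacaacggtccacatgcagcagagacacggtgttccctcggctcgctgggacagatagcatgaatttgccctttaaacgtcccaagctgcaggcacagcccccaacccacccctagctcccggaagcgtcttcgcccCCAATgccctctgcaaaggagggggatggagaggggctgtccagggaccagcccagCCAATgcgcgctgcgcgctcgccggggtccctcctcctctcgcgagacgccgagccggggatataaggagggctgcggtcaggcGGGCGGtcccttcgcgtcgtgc
Slc25a5: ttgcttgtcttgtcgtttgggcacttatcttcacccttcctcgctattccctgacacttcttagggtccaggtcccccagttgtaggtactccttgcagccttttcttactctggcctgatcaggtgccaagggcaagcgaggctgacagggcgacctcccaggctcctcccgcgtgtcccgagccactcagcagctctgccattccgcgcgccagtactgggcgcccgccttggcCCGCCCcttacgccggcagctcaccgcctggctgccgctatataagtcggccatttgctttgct

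The Slc25a42 window held 5 CCAAT boxes and 1 GC box, and the Slc25a4 window held 2 and 1. Slc25a30 had 1 of each. Slc25a5 had 1 GC box and Slc25a43 had 2, without a CCAAT match in either. RefSeq gave 31 such windows for 26 of the 35 genes, and 29 of the 31 lay in an H3K27ac interval. The windows of all genes were taken whether or not they lay in one. The GC box was in 24 of the 31 (77.4%), against 35.7% of all 32851 windows in the table. CCAAT was in 16 (51.6%, against 37.4%), the E-box in 5 (16.1%, against 7.15%) and the cAMP response element in 2 (6.45%, against 1.79%). The half-site was in 3 (9.68%, against 16.3%), and no window held the NRF1 core (2.71% of all) or the estrogen-related receptor element (0.423%). The windows had a median of 17 CpG dinucleotides and 60% GC, compared with 7 and 52.7% over all windows. These matches describe the letters in the windows, and binding was not measured.

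H3K27ac at the carrier genes spanned a wide range. Slc25a24, an ATP-Mg/phosphate carrier, had by far the largest sum with a mean of 5516 scaled reads, followed by Slc25a26 (2344), Slc25a25 (1099) and Slc25a29 (1087). At the other end, Slc25a41 (7.80) and Slc25a2 (4.56) fell below the mean of 10 needed for a test, so 33 of the 35 genes were tested. The sums also differed in how many intervals they covered. Slc25a24 had 44 intervals with a summed length of 143861 bp, and 12.02% of its signal lay over its own start. For Slc25a26, which imports S-adenosylmethionine, 1.39% of the signal lay over the start. Another 49.6% came from 1 intron-annotated interval at chr6:94258428-94286130, far upstream of the gene, which holds the gene start of Magi1. The Slc25a24 sum likewise included an interval over the start of Vav3 (7.76%). Per kb of interval the order changed. Slc25a39, which supplies mitochondria with glutathione, came first with 49.8 scaled reads per kb. Slc25a29 (43.8), Slc25a36 (43.2), Slc25a48 (42.2) and Slc25a32 (41.2) followed, and Slc25a24 had 38.3.

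H3K27ac rose with acetate at nearly all carrier genes on the deposited scale. Averaged over the 3 inhibitor backgrounds, 31 of the 33 tested genes were higher and none was lower at a Benjamini-Hochberg adjusted p under 0.05 in limma. Their median log2 fold change was 0.66 (1.58-fold), with 0.70 in set 1 and 0.60 in set 2. The change was shared with the rest of the genome, where 88.2% of 19458 genes passed the same test and the median was 0.63. In 30 of the 33 genes the acetate library was the higher one in each of the 6 same-set pairs, compared with 84.2% of all genes. The exceptions were Slc25a13, Slc25a21 and Slc25a33. The 2 genes that did not pass were low, Slc25a40 at 0.43 ± 0.23 (SE, adjusted p = 0.0719) and Slc25a33 at 0.57 ± 0.31 (adjusted p = 0.0802). The deposited scale multiplies reads by the factor without dividing by depth. When shares of reads were multiplied by the factor instead, Slc25a4 changed by 0.47 (adjusted p = 0.396) and Slc25a30 by 0.61 (adjusted p = 0.396). No Slc25 gene then passed in limma, and 0% of all genes did.

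**Figure D1:**
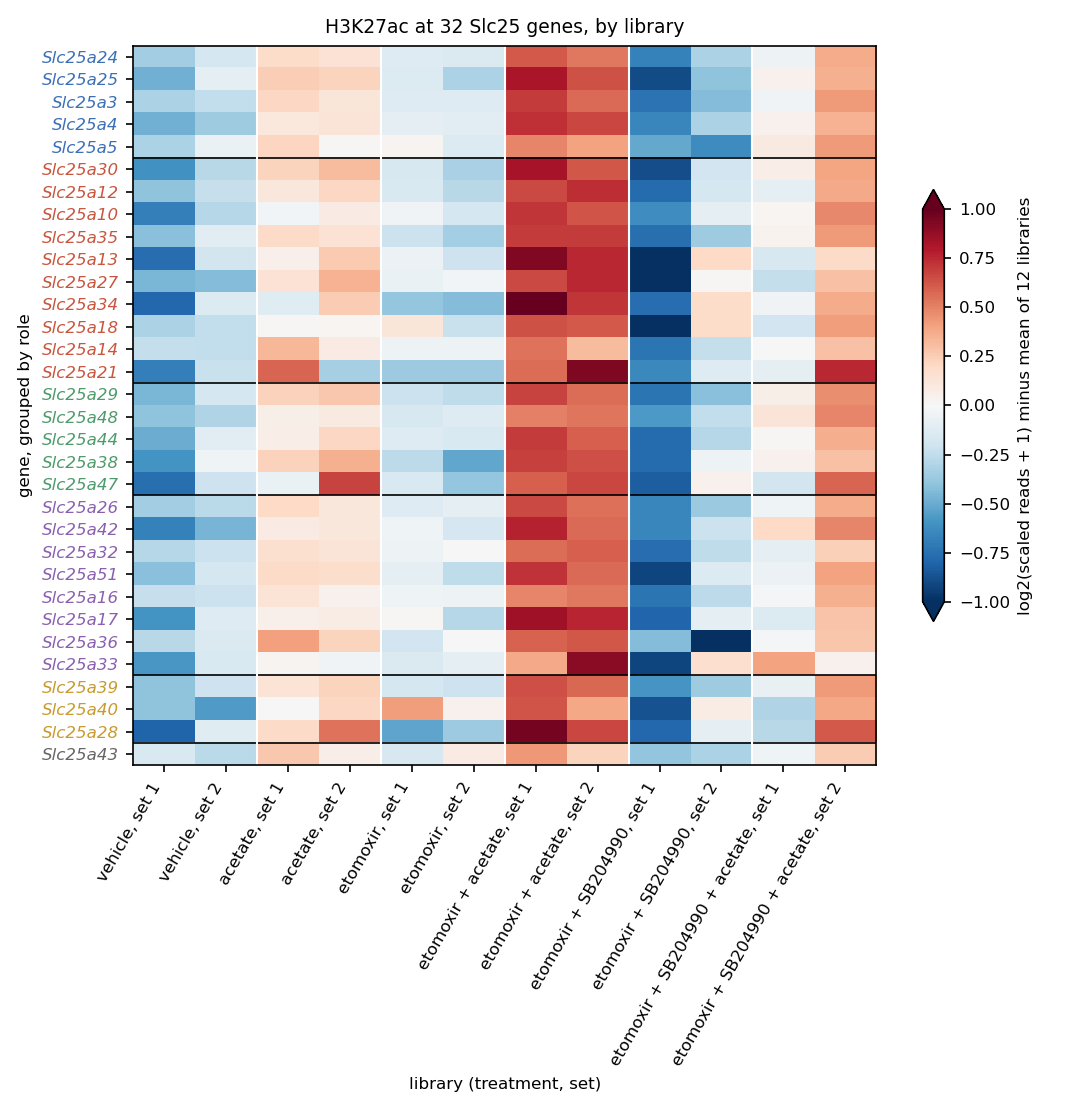
H3K27ac at 32 tested Slc25 genes (rows, grouped by role and ordered by mean) in the 12 libraries (columns), as log2(scaled reads + 1) minus the mean of the gene over the 12 libraries. Both etomoxir + acetate libraries were above the mean at every gene, and the etomoxir + SB204990 library of set 1 was below it at every gene.

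Of the adenine nucleotide and phosphate carriers, 5 of 5 tested genes were higher with a median of 0.66, beside 88.2% called and a median of 0.63 over all genes. The same all-gene values apply to each group below. Slc25a4 encodes ADP/ATP carrier 1, the form of heart and muscle, and Slc25a5 encodes carrier 2, the form of dividing cells. Slc25a4 had 384 and 418 scaled reads with vehicle (set 1 and set 2), 575 and 585 with acetate, 501 and 497 with etomoxir, 892 and 852 with etomoxir + acetate, 340.1 and 430 with etomoxir + SB204990, and 552 and 681 with all 3 agents. In each background both acetate libraries exceeded both libraries without it, and the average change was 0.67 ± 0.11 (SE, adjusted p = 2.296e-05). Slc25a5 had 112 and 134 with vehicle, 163 and 141 with acetate, 142 and 127 with etomoxir, 197 and 185 with etomoxir + acetate, 98.0 and 90 with etomoxir + SB204990, and 149 and 188 with all 3. Its average change was 0.55 ± 0.14 (adjusted p = 0.00120). Per kb of interval the levels of the pair were alike, at 32.8 for Slc25a4 and 32.2 for Slc25a5, although Slc25a4 had the larger sum.

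Slc25a3, the phosphate carrier that feeds ATP synthase, rose by 0.66 ± 0.11 (adjusted p = 2.395e-05). Its libraries held 615 and 646 with vehicle, 887 and 833 with acetate, 703 and 703 with etomoxir, 1244 and 1137 with etomoxir + acetate, 460.0 and 569 with etomoxir + SB204990, and 750.3 and 1029 with all 3. The ATP-Mg/phosphate carriers Slc25a24 and Slc25a25, which are regulated by calcium, rose by 0.60 ± 0.10 and 0.78 ± 0.11. Slc25a24 had 4197 and 4728 with vehicle and 6050.2 and 5913 with acetate. With etomoxir it had 4892 and 4833, which became 8189 and 7688 with acetate added. With both inhibitors it had 3335 and 4283, and 5157 and 6921 with acetate added. Slc25a25 was among the 3 well-covered genes farthest from the all-gene median. It went from 746 and 977 to 1238 and 1215 with acetate alone, from 949 and 838 to 1841 and 1623 on etomoxir, and from 559 and 788 to 1076 and 1332 on both inhibitors.

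All 10 tested carriers of the dicarboxylate and aspartate-glutamate type rose, with a median of 0.67 (all genes 88.2% called, median 0.63). Slc25a10 exchanges malate and succinate for phosphate. It had 151 and 199.7 scaled reads with vehicle, 238 and 257 with acetate, 237 and 215 with etomoxir, 400 and 376 with etomoxir + acetate, 158 and 228 with etomoxir + SB204990, and 246 and 339 with all 3. Its change of 0.63 ± 0.14 came almost entirely from 1 interval downstream of the gene (chr11:120504115-120513464, 93.7% of its signal). The start of Slc25a10 lay in the Mrpl12 interval at chr11:120455533-120501845, which rose by 0.68 (adjusted p = 3.71e-10 over intervals).

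Slc25a12 and Slc25a13 encode the aspartate-glutamate carriers of the malate-aspartate shuttle. Slc25a12 had 204 and 229 with vehicle, 292 and 311 with acetate, 242 and 222 with etomoxir, 426 and 451 with etomoxir + acetate, 158 and 239 with etomoxir + SB204990, and 253 and 350.4 with all 3, a change of 0.67 ± 0.13. The largest share of this sum lay over the start of Hat1. Slc25a13 had 77.1 and 116 with vehicle and 136 and 158 with acetate. On etomoxir it had 126 and 113 without acetate and 251 and 223 with it, and on both inhibitors 64.1 and 151 without and 118 and 150.04 with it. Its average of 0.68 ± 0.18 was thus uneven between sets, with 0.89 in set 1 and 0.47 in set 2.

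Slc25a30, a carrier related to the uncoupling proteins, rose by 0.82 ± 0.12 (adjusted p = 1.602e-05) and lay at the 92.2 percentile of all tested genes. Its libraries held 389 and 488 with vehicle and 690.0 and 737 with acetate. They held 529 and 473 with etomoxir and 1052 and 910.1 with etomoxir + acetate, then 319.8 and 518 with both inhibitors and 622 and 781 with all 3. The groups with and without acetate did not overlap in any background. The signal of Slc25a30 was spread over 11 intervals, of which the largest held 30.7%.

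The 5 tested genes grouped as amino acid carriers rose with a median of 0.75 (all genes 88.2% called, median 0.63). Slc25a29, which carries basic amino acids, went from 758 and 919.9 to 1222 and 1255 with acetate, from 894 and 872 to 1661 and 1536 on etomoxir, and from 626 and 778 to 1086 and 1434 on both inhibitors (0.75 ± 0.11). Slc25a38 (glycine, 0.75), Slc25a44 (branched-chain amino acids, 0.65) and Slc25a48 (choline, 0.60) also passed the test.

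Of the cofactor, nucleotide and one-carbon carriers, 8 of 9 passed, with a median of 0.63, near the 88.2% and 0.63 of all genes. Slc25a42, which brings coenzyme A into the matrix, rose by 0.74 ± 0.11 (adjusted p = 1.585e-05). Slc25a16, linked to coenzyme A by its yeast counterpart, rose less, by 0.51 ± 0.13 (adjusted p = 8.77e-04). Slc25a16 had 205 and 207 with vehicle, 265 and 248 with acetate, 234 and 232 with etomoxir, 338 and 347 with etomoxir + acetate, 145 and 201 with etomoxir + SB204990, and 239 and 308 with all 3. Slc25a26 went from 1775 and 1881 to 2600.5 and 2448 with acetate alone, from 2069 and 2124 to 3587 and 3324 on etomoxir, and from 1443 and 1747 to 2199.7 and 2929.6 on both inhibitors (0.62 ± 0.10). Slc25a51 for NAD+ (0.67), Slc25a32 for folate (0.53) and Slc25a17 of the peroxisome (0.63) rose as well.

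Slc25a43, a carrier without an established substrate, showed the smallest rise of any gene that passed, 0.40 ± 0.14 (adjusted p = 0.0105), at the 6.56 percentile of all genes. Its libraries held 129.9 and 119.6 with vehicle and 174 and 152 with acetate. On etomoxir they held 129 and 153, and 196 and 169 with acetate, and on both inhibitors 109.5 and 116, and 140.4 and 173 with acetate. The groups with and without acetate did not overlap, but the steps were small. Of the iron and glutathione carriers, Slc25a39 (0.65) and the iron carrier Slc25a28 (0.90 ± 0.26) passed. Slc25a28 was low, with 14.96 to 53 scaled reads.

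**Figure D2:**
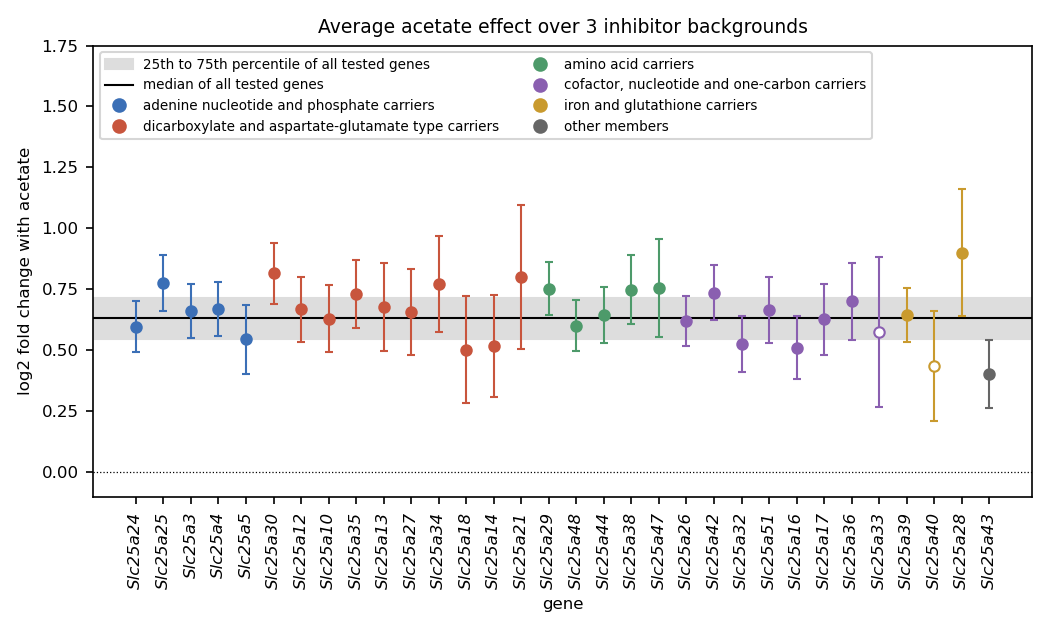
Average log2 fold change with acetate (points) and its SE from limma (bars) at 32 Slc25 genes, colored by role, with open points for genes that did not pass an adjusted p of 0.05. The points run from 0.40 for Slc25a43 to 0.90 for Slc25a28 around the all-gene median of 0.63 (line), and 15 of the 32 lie between the quartiles of all genes (band).

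Whether the carriers departed from the common shift was then examined. Of the 33 genes, 20 lay above the all-gene median of 0.63 and 15 lay within its quartiles. Scaled by the median of ratios, which removes a shift common to all genes, the median of the 33 became 0.03. No Slc25 gene then passed in limma (0.0411% of all genes did), and 4 had an unadjusted p under 0.05 (2221 of all 19458 genes did). The lowest adjusted p was that of Slc25a30 (0.18 ± 0.04, adjusted p = 0.154), while the largest change was that of the low Slc25a28 (0.29 ± 0.16, adjusted p = 0.524), and Slc25a43 had -0.23 ± 0.11 (adjusted p = 0.471). Within that scale, Slc25a29 and Slc25a30 were higher with acetate in 6 of 6 same-set pairs, and Slc25a32 was lower in 6 of 6. Among all genes, 6.77% were higher in every pair and 4.41% lower.

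Each acetate step was then tested by itself. Acetate vs. vehicle gave a median of 0.49 over the 33 genes (all genes 0.48), with 0.61 in set 1 and 0.37 in set 2. By limma no Slc25 gene passed (0% of all genes did), with 17 at an unadjusted p under 0.05 (8341 of all 19458 genes). edgeR called 0 (0% of all genes) and DESeq2 12 (27.6%). DESeq2 gave an adjusted p to 10781 of the 19458 genes, of which 5373 passed. Fitted to the libraries of this comparison alone, limma called 23 (61.5%). Both acetate libraries lay above both vehicle libraries in 32 of the 33 genes, against 84.2% of all genes. On etomoxir, acetate raised 26 of 33 genes (78.2% of all genes called) with a median of 0.79, the same as over all genes, and 0.81 in both sets. Its libraries lay above those of etomoxir alone without overlap in all genes but Slc25a40 (32, against 98.3% of all genes). The number called was 16 (37.9% of all genes) without the etomoxir library of set 2 and 15 (28.8%) without the etomoxir + acetate library of set 1. In such fits the lone library of a group is assumed to vary like the other groups. Slc25a34, a carrier of unknown substrate, changed most, from 54.9 and 53.3 to 160 and 119 (1.34 ± 0.34, adjusted p = 0.00326). On etomoxir + SB204990, acetate raised 21 genes (57.7% of all genes called) with a median of 0.66, or 0.70 in set 1 and 0.59 in set 2. The libraries did not overlap in 24 genes (70.3% of all genes). The number called was 33 (91.4% of all genes) without the etomoxir + SB204990 library of set 2, 9 (23.3%) without its library of set 1 and 0 (0%) without the etomoxir + SB204990 + acetate library of set 2. The acetate step was larger on etomoxir than on vehicle at 31 of 33 genes, with a median interaction of 0.29 (all genes 0.30), or 0.18 in set 1 and 0.36 in set 2. It was larger on both inhibitors at 26, with a median of 0.16 (all genes 0.16), or 0.12 and 0.18. By the interaction test in limma none of the 33 passed for either (0% of all genes called). Of the 33, 0 had an unadjusted p under 0.05 (31 of all 19458 genes for etomoxir and 11 for both inhibitors). edgeR and DESeq2 called 0 (0% of all genes). Since no gene of the whole table passed, this does not show that the steps were equal.

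With etomoxir alone, no Slc25 gene passed in limma, and 0.0154% of all genes did. Slc25a42 alone had an unadjusted p under 0.05 (133 of all 19458 genes did). edgeR called 0 of the 33 (0.0103% of all genes) and DESeq2 0 (0.0719%). The median change over the 33 genes was 0.17, against 0.14 over all genes. The sets differed, with 0.34 in set 1 and 0.00096 in set 2 for the carriers and 0.27 and -0.0039 for all genes. Both etomoxir libraries exceeded both vehicle libraries in 15 of the 33 genes, compared with 40.2% of all genes. With or without acetate, etomoxir was higher in all 4 same-set pairs at 16 genes (44.7% of all genes).

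Slc25a42 lay highest among the well-covered carriers. It had 476 and 554 scaled reads with vehicle (515 ± 54.8, SD, n = 2) and 743 and 681 with etomoxir (712 ± 43.9). On acetate it had 807 and 826, and with etomoxir added 1299 and 1130.0. With etomoxir + SB204990 it had 485 and 659, and with all 3 agents 877 and 1071. The etomoxir libraries thus lay above their counterparts without overlap, both with and without acetate. The log2 fold change of etomoxir vs. vehicle was 0.47 ± 0.19 (SE, adjusted p = 0.990), with 0.64 in set 1 and 0.30 in set 2, at the 96.5 percentile of all genes. Scaled by the median of ratios it was 0.33 ± 0.08 (adjusted p = 0.477). Across all alternatives its adjusted p ranged from 0.181 to 1.00, so the change did not pass under any of them.

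The signal of Slc25a42 was concentrated over its start. The interval chr8:70209266-70226580, annotated as intergenic in the table but covering the transcript start printed above, held 87.0% of it. That interval changed by 0.47 with etomoxir vs. vehicle (0.60 in set 1 and 0.35 in set 2) and by 0.55 with etomoxir + acetate vs. acetate. With etomoxir + SB204990 vs. vehicle, the gene changed by 0.14 ± 0.19 (adjusted p = 0.843) while the all-gene median was -0.18. On the median-of-ratios scale this was 0.31 (adjusted p = 0.237). Without the etomoxir + SB204990 library of set 2, the spike-in-scaled value was -0.08.

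The highest value of any carrier was that of Slc25a40, which was low. It had 31.3 and 27.7 with vehicle and 56.0 and 42.9 with etomoxir (0.72 ± 0.39, adjusted p = 0.990). In all, 19 of the 33 genes lay above the all-gene median. Among them was Slc25a13 (0.33 ± 0.31, with 0.70 in set 1 and -0.03 in set 2). Slc25a27, related to the uncoupling proteins, had 76.2 and 77.6 with vehicle and 101 and 103 with etomoxir (0.40 ± 0.30, adjusted p = 0.990). It had 117 and 134 with acetate, 167 and 179 with etomoxir + acetate, 52.2 and 106 with both inhibitors and 89.3 and 129 with all 3. Slc25a10 gave 0.38 ± 0.24, with 0.65 in set 1 and 0.10 in set 2. Slc25a4 gave 0.32 ± 0.19, with 0.38 and 0.25. Its intergenic interval at chr8:46223795-46227119, upstream of the start, changed by 0.69 (0.71 and 0.66), while the interval over the start (chr8:46202815-46213241) changed by 0.25. Slc25a5, in contrast, lay at the all-gene median with 0.13 ± 0.25. None of these changes passed the test. On the median-of-ratios scale, Slc25a42, Slc25a4, Slc25a10 and Slc25a18 were higher in all 4 same-set pairs with etomoxir, and Slc25a29 was lower in all 4. Of all genes, 9.94% were higher and 10.2% lower in every pair. On this scale no Slc25 gene passed in limma for etomoxir vs. vehicle (0.0514% of all genes) or for etomoxir + acetate vs. acetate (0.0206%). An unadjusted p under 0.05 was found at 3 Slc25 genes (731 of all 19458) in the former and at 2 (858) in the latter. For etomoxir + SB204990 vs. vehicle, 0.319% of all genes passed on this scale and none of the 33. Of the 33, 3 had an unadjusted p under 0.05 (1508 of all 19458 genes did).

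**Figure D3:**
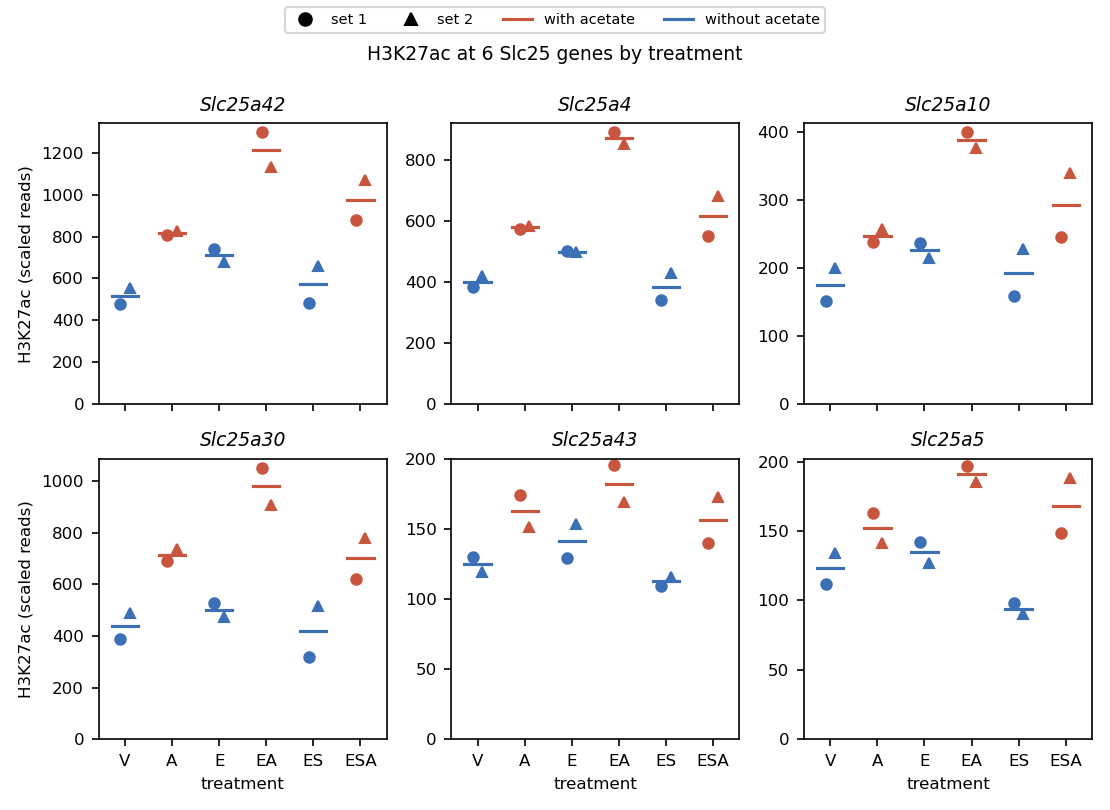
Scaled reads at 6 Slc25 genes in each library by treatment (V vehicle, A acetate, E etomoxir, EA etomoxir + acetate, ES etomoxir + SB204990, ESA all 3 agents), with circles for set 1, triangles for set 2 and lines for the mean of both. Slc25a42 rises from 515 with vehicle to 712 with etomoxir, whereas Slc25a5 goes from 123 to 135.

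On acetate, adding etomoxir gave a median of 0.46 over the carriers (all genes 0.43), with 0.52 in set 1 and 0.42 in set 2. No Slc25 gene passed in limma (0.0771% of all genes did), although 18 had an unadjusted p under 0.05 (6334 of all 19458 genes did). edgeR called 0 (0.0668% of all genes) and DESeq2 7 (6.19%). DESeq2 gave an adjusted p to 3237 of the 19458 genes, of which 1204 passed. Both libraries were higher than both acetate libraries in 29 of 33 genes, against 87.4% of all genes. Slc25a34 had the largest change, from 66.4 and 86.1 to 160 and 119 (0.86 ± 0.34, adjusted p = 0.151). Slc25a17, which carries cofactors into peroxisomes, went from 231 and 233 to 401 and 377 (0.74 ± 0.25, adjusted p = 0.151). Its other libraries held 146 and 204 with vehicle, 224 and 183 with etomoxir, 128 and 208 with both inhibitors and 202 and 271 with all 3 agents. Slc25a43 had the smallest, from 174 and 152 to 196 and 169 (0.16 ± 0.24). Its groups overlapped.

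With both inhibitors the carriers did not share 1 direction between sets. Etomoxir + SB204990 vs. vehicle gave a median of -0.14 (all genes -0.18), with -0.27 in set 1 and 0.02 in set 2. No Slc25 gene passed in limma (0.00514% of all genes did), and none had an unadjusted p under 0.05 (825 of all 19458 genes did). edgeR called 0 of the Slc25 genes (0.00514% of all genes) and DESeq2 0 (0.0719%). Both libraries lay below both vehicle libraries in 6 genes, Slc25a3, Slc25a5, Slc25a16, Slc25a26, Slc25a36 and Slc25a43, compared with 25.5% of all genes. Without the etomoxir + SB204990 library of set 2, 3 genes were lower at an adjusted p under 0.05 (12.3% of all genes called, 14 higher and 2387 lower). Without that of set 1 Slc25a36 alone was lower (5.61% called), while the direction of all genes called turned, with 1064 higher and 27 lower. Slc25a36, which carries pyrimidine nucleotides, had the lowest value. It had 93.5 and 102 with vehicle and 83.6 and 54 with both inhibitors (-0.53 ± 0.27, adjusted p = 0.777), and the change was -0.16 in set 1 and -0.91 in set 2. Leaving out 1 library gave -0.84 to -0.22, and it passed without the etomoxir + SB204990 library of set 1 (adjusted p = 0.0298). It had 151 and 133 with acetate, 99.4 and 113 with etomoxir, 171 and 175 with etomoxir + acetate and 112 and 138 with all 3. Slc25a34 had the highest, 0.17 ± 0.34, with 42.2 and 82 against 41.6 and 65.8. With acetate added to both inhibitors it had 70.5 and 93.7.

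Adding SB204990 to etomoxir gave a median of -0.34 (all genes -0.33), but -0.62 in set 1 and -0.02 in set 2. No Slc25 gene passed in limma (0% of all genes did), with 6 at an unadjusted p under 0.05 (4087 of all 19458 genes). edgeR called 0 of the 33 (0% of all genes). DESeq2 also called 0 of the 33, but 849 of all genes (4.36%), all lower, with an adjusted p given to 4746. Both libraries lay below both etomoxir libraries in 17 of 33 genes, against 47.1% of all genes. With or without acetate, SB204990 went with lower values in all 4 same-set pairs at 15 genes (47.2% of all genes). On the median-of-ratios scale this held for Slc25a25 (8.7% of all genes), and the opposite for Slc25a21 (7.16%). All 5 adenine nucleotide and phosphate carriers lay below the all-gene median, with a median of -0.43. Within set 1 their median was -0.56 (all genes -0.62), and within set 2 it was -0.21 (all genes -0.0068), where the etomoxir + SB204990 library was unlike the others. Among them Slc25a5 went from 142 and 127 to 98.0 and 90 (-0.51 ± 0.25, adjusted p = 0.236), with -0.53 in set 1 and -0.49 in set 2. Slc25a36 had -0.65 ± 0.27 (adjusted p = 0.234), with -0.25 in set 1 and -1.06 in set 2. Leaving out 1 library gave -0.96 to -0.34, and it passed only without the etomoxir + SB204990 library of set 1 (adjusted p = 0.00624). Slc25a38 had -0.02 ± 0.24, with -0.51 in set 1 and 0.47 in set 2. It had 230.3 and 192 on etomoxir against 161 and 266 on both inhibitors. Its other libraries held 181 and 267 with vehicle, 323 and 352 with acetate, 444 and 431 with etomoxir + acetate and 284 and 338 with all 3. Without the etomoxir + SB204990 library of set 2, which stood apart, 20 Slc25 genes were lower at an adjusted p under 0.05 (63.8% of all genes called, 1 higher and 12419 lower). Without that of set 1 Slc25a36 alone was lower (6.09% called), while most of the genes called were higher (962, with 223 lower).

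**Figure D4:**
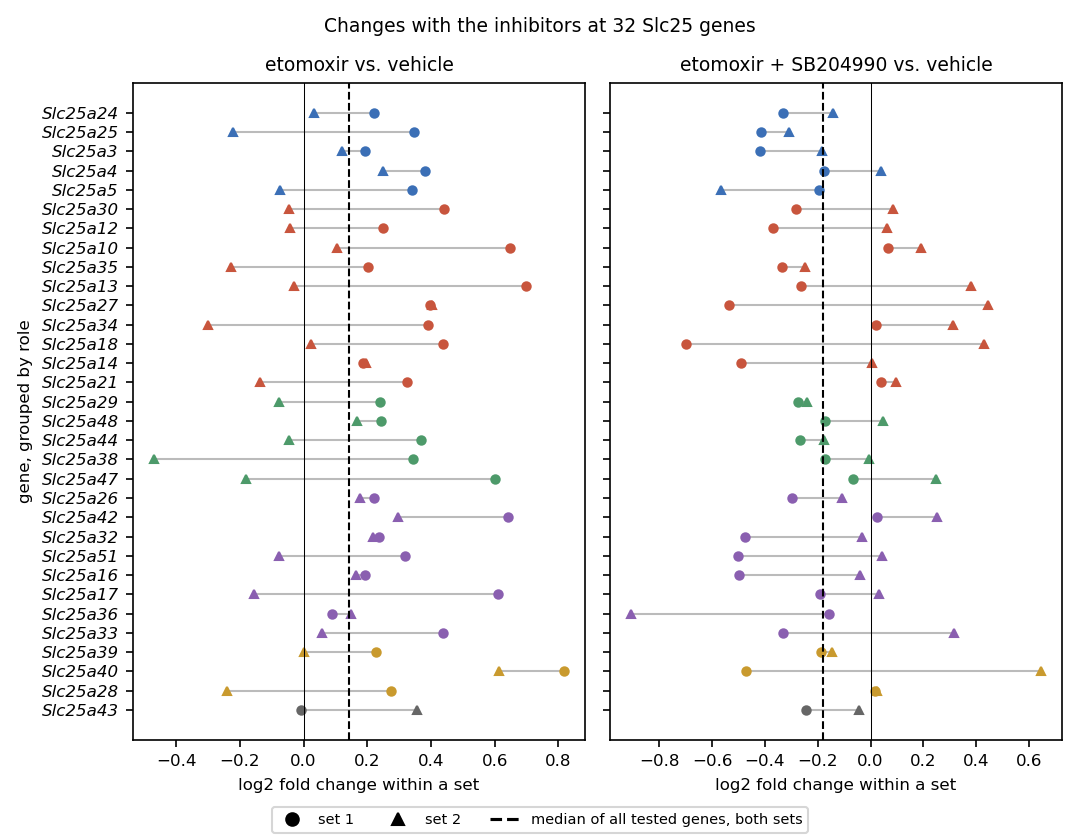
Log2 fold change within set 1 (circles) and set 2 (triangles) at 32 Slc25 genes, grouped by role, for etomoxir vs. vehicle (left) and etomoxir + SB204990 vs. vehicle (right), with the pooled median of all tested genes (dashed). Slc25a42 is to the right of the dashed line in both sets of both panels, and the sets of most genes lie apart.

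The same pattern was found in single intervals. Of the 221 Slc25 intervals 128 were strong enough to be tested, among 63903 in all. On average acetate raised 101 of them and lowered none (77.2% of all intervals called), with a median of 0.64 for the carriers and for all intervals. On etomoxir alone it raised 72 (56.4% of all intervals called), and on both inhibitors 39 (27.4%). The intervals over a start of the own gene passed more often (27 of 28) than those elsewhere (74 of 100), but their median signal was 177 scaled reads against 23, and their median changes were alike at 0.66 and 0.64. No difference between them was tested. The interval that held most of the Slc25a25 signal (chr2:32410790-32434048, promoter) rose by 0.80, and that of Slc25a29 (chr12:108823239-108846519, intron) by 0.75. The intron interval of Slc25a24 at chr3:109147472-109183534, the strongest of the family with a mean of 1642, rose by 0.55. No Slc25 interval passed in limma for acetate alone (0.0955% of all intervals called), where 36 had an unadjusted p under 0.05. None passed for etomoxir (0.0626%, 3 unadjusted), for etomoxir on acetate (0.155%, 35), for both inhibitors vs. vehicle (0.0532%, 4) or for adding SB204990 to etomoxir (0.0469%, 17). The interaction of acetate with etomoxir + SB204990 also gave none (0.00156%, with 0 unadjusted), nor did that with etomoxir (0%, with 2 unadjusted). No count test was run on intervals.

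Reading the starts in place of the symbols included genes that the symbols leave out. Over 39 intervals that held a coding start of 37 family genes, acetate raised 37, with a median of 0.63 (77.2% of all intervals called, median 0.64). Those that did not pass were the start of Slc25a26 (0.44, adjusted p = 0.0658) and that of Slc25a53 (0.37, adjusted p = 0.0520). Some of the 39 intervals were listed under another symbol. Their changes ran from 0.54 to 0.76 at 6 genes with intervals of their own as well, among them Slc25a33 (0.76) and Slc25a40 (0.59), and from 0.37 to 0.67 at 7 genes without, of which all but Slc25a53 passed. No difference between these groups was tested. Many of these intervals hold the start of a neighbor as well, and the signal of the 2 genes cannot be told apart there.

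A list of other genes of mitochondrial transport was read beside the carriers. It held 39 genes, namely Slc25a1, Slc25a20, the uncoupling proteins, the pyruvate carrier, sideroflexins, calcium uniporter parts, ABC transporters, outer membrane channels and the import machinery for carriers, and 36 could be tested. On average acetate raised 36 of 36 (88.2% of all genes called), with a median of 0.62, or 0.70 in set 1 and 0.58 in set 2. Acetate on etomoxir raised 31 (78.2%) and acetate on both inhibitors 23 (57.7%). No gene of the list was called lower in any comparison. The median was -0.20 for both inhibitors vs. vehicle, with -0.28 in set 1 and -0.085 in set 2. For adding SB204990 it was -0.34, with -0.60 in set 1 and -0.088 in set 2. With etomoxir vs. vehicle, 1 gene of the list passed in limma (0.0154% of all genes). This was Ucp3, an uncoupling protein of muscle and fat oxidation (1.18 ± 0.21, adjusted p = 0.0486). Ucp3 also passed on acetate (1.29 ± 0.21, adjusted p = 0.00619, 0.0771% of all genes). Without the intensity trend, or with read shares times the factor, no gene of the whole table passed in either comparison. The median of the list with etomoxir was 0.18, or 0.30 in set 1 and 0.04 in set 2. Slc25a20, the acylcarnitine carrier, had 0.52 ± 0.28 (adjusted p = 0.990).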

How the data were processed

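H3K27ac ChIP-seq of 12 libraries of 4T1 cells was deposited as 1 table of intervals by libraries. Per the labels and the methods, the authors aligned reads to a merged human and mouse (mm10) genome, called and annotated intervals, and multiplied the reads of each interval by a spike-in factor derived from the share of human reads. The deposited values are therefore scaled signal (scaled reads) and not counts. All 12 value columns were used. Dividing by the value of 1 read gave whole numbers for 100% of values within 0.01.

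Values were summed per gene symbol and tested as log2(sum + 1) with limma 3.58.1 (R 4.3.3) with an intensity trend, 6 group means and 12 libraries. The test covered the 19458 symbols with a mean of at least 10, with Benjamini-Hochberg adjustment over all of them and a threshold of 0.05. Intervals were tested in the same way. A fold change on the log2(sum + 1) scale understates that of low genes. Alternatives were other scalings, filters and pseudocounts, promoter intervals alone, a block for set, leaving out each library, and edgeR 4.0.16 and DESeq2 1.42.0 on the recovered reads. For the average acetate effect, edgeR called 31 and DESeq2 30 of the 33 genes (87.6% and 85.9% of all genes). Transcript starts came from GENCODE (GRCm38), and coordinates are mm10, counted from 1.

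Values in every library are given for the 3 genes farthest from the all-gene median in the average acetate effect and in each inhibitor comparison, among genes with a mean of at least 50, for the 4 with the largest mean, and for the ADP/ATP, phosphate, dicarboxylate, aspartate-glutamate and coenzyme A carriers. One gene is counted among the 33 but not reported singly here. The genes and lists were chosen with earlier results of these data known.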

Additional observations from a re-analysis of the deposited data

How the results depend on the processing

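The acetate calls depended on the scaling. By median-of-ratios scaling, 0 Slc25 genes passed for acetate on etomoxir, acetate on both inhibitors or the average acetate effect. The same held by total-sum scaling and by read shares times the factor (which takes depth out). It also held by median-of-ratios scaling with the replicate block (chosen after seeing the data). For the average effect the shares of all genes called were 0.0411%, 0.216%, 0% and 0.0617%, in this order. For acetate on etomoxir and on both inhibitors they were 0%. With the interval over the transcript start in place of the sum (also chosen after seeing the data), 29 of 30 genes passed on average (77.2% of all intervals called). With promoter intervals alone, 13 Slc25 genes were tested. Of these 6 passed for acetate alone (19.5% of all genes so tested), 11 on etomoxir (78.9%), 8 on both inhibitors (60.8%) and 13 on average (91.9%). With only the libraries of the comparison, the genes called were 23 for acetate alone (61.5%), 0 on both inhibitors (0%) and 24 for etomoxir on acetate (73.1% of all genes). By DESeq2 they were 12 for acetate alone (27.6%) and 7 for etomoxir on acetate (6.19%). These are shares of all 19458 genes, of which DESeq2 gave an adjusted p to 10781 and 3237. Leaving out 1 library gave 15 to 21 genes on etomoxir (28.8% to 57.3% of all genes called). It gave 0 to 33 on both inhibitors (0% to 91.4%) and 28 to 33 on average (81.2% to 98.5%). It gave 0 to 3 for both inhibitors vs. vehicle (0% to 12.3%) and 0 to 20 for adding SB204990 (0% to 63.8%). In these fits a group had a lone library, which is assumed to vary like the other groups.

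The same suffixes recur in every group, but it is not stated whether they pair the libraries. Over 15 pairs of groups the deviations of same-set libraries correlated at -0.225 to 0.601 (median -0.142), with 4 over 0.1. With the replicate block, 8 genes passed for acetate alone (20.0% of all genes), 27 on etomoxir (83.1%), 22 on both inhibitors (65.0%) and 31 on average (90.3%).

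Among the genes with values in every library for it, the average acetate effect turned negative by median-of-ratios scaling, with and without the block, at Slc25a5 (-0.087), Slc25a10 (-0.0043), Slc25a16 (-0.12), Slc25a24 (-0.039), Slc25a26 (-0.016) and Slc25a43 (-0.23). Outside that selection of genes, the average effect by median-of-ratios scaling was also negative at Slc25a14 (-0.10), Slc25a17 (-0.0063), Slc25a18 (-0.12), Slc25a32 (-0.11), Slc25a33 (-0.021), Slc25a40 (-0.19) and Slc25a48 (-0.034). By total-sum scaling it turned negative at Slc25a5 (-0.077), Slc25a16 (-0.11), Slc25a24 (-0.029), Slc25a26 (-0.0057) and Slc25a43 (-0.22). Etomoxir on acetate turned at Slc25a43 to -0.28 and -0.24 by these scalings. Both remove a shift shared by all genes. For adding SB204990, Slc25a38 turned to 0.28, 0.33 and, by the share of reads, 0.47, and Slc25a42 to 0.024 by total sum and 0.17 by the share. Leaving out 1 library gave -0.39 to 0.34 at Slc25a38 (0.10 without etomoxir set 1 and 0.34 without etomoxir + SB204990 set 1) and -0.35 to 0.59 at Slc25a34 (-0.35 without etomoxir + SB204990 set 2). For both inhibitors vs. vehicle it gave -0.30 to 0.64 at Slc25a34 (-0.16 without vehicle set 1 and -0.30 without etomoxir + SB204990 set 2) and -0.083 to 0.36 at Slc25a42. The causes were not tested.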
